A study of Mus musculus with 19 samples.

Results

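The 10 genes described here, *Stab1*, *Stab2*, *Clec4g*, *Kdr*, *Lyve1*, *Oit3*, *Fcgr2b*, *Mrc1*, *Eng* and *Egfl7*, mark the endothelial cells that line the sinusoids of the liver. They were taken by symbol from the 31053 genes of a table of liver RNA counts, all 10 were found, and all 10 passed the filter on low counts in every comparison. The rule names symbols and sets no threshold on their values. Livers of male C57BL6J mice were studied in 3 groups. The labels give an age of 6 to 8 weeks without tying it to a time point, and the treatment below lasted longer than that. Vehicle livers (n = 5) came from mice given PBS. AAV-GFP livers (n = 7) and AAV-miR-34b/c livers (n = 7) came from mice that received rising doses of thioacetamide (TAA), a hepatotoxin that causes fibrosis, for 12 weeks. At week 10 these mice were injected with AAV8 TBG eGFP or with AAV8 TBG miR34b/c, a combination of a vector for miR-34b and a vector for miR-34c, and they were killed 4 weeks later. The TBG promoter is specific to hepatocytes, so the vectors were not designed to express their cargo in the endothelial cells whose markers are described. The labels name no vector for the vehicle mice, and TAA and the control vector therefore cannot be told apart in comparisons with vehicle.

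Liver sinusoidal endothelium is unlike the endothelium of other organs. Its cells have open fenestrae and lack an organised basement membrane, and they clear waste such as hyaluronan, collagen fragments, modified lipoproteins and small immune complexes from the blood through scavenger and endocytic receptors. During fibrosis these cells are known to lose fenestrae and to take on features of continuous capillaries, a process called capillarisation, in which basement membrane and markers such as *Cd34* appear. Several of the 10 genes are also used by other cells: *Mrc1*, *Stab1*, *Fcgr2b* and *Lyve1* by macrophages, *Fcgr2b* by B cells and *Lyve1* by lymphatic endothelium.

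The vectors express microRNAs of the miR-34 family, which recognise target transcripts mainly through the seed, bases 2 to 8. The mature sequence is shown to give the letters that were searched for in the markers. It lies on the minus strand at chr9:51103610-51103632 (RefSeq, GRCm38.p6), and the capitals mark the seed.
mmu-miR-34b-5p: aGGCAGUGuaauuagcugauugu
The DNA letters that pair with this seed, CACTGCC, were looked for on the transcript strand of the longest annotated 3′ UTR of each gene. They were found in 2 of the 10 markers (20%), *Fcgr2b* and *Eng*, against 1641 of 9546 tested genes with a 3′ UTR (17.2%). Both windows are shown with the match in capitals, from GRCm38, for *Fcgr2b* at chr1:170960782-170960810 on the minus strand and for *Eng* at chr2:32681799-32681827 on the plus strand.
Fcgr2b: ctatcgatccaCACTGCCactaaaattaa
Eng: gaaagacacggCACTGCCgtgcacaccca
A match of 7 letters is a description of the sequence and was not tested as a site. The 5p arm of miR-34c is named only. *Lyve1*, the marker with the clearest difference between groups, held no match in its 3′ UTR of 1565 bases.

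Total counts per library were 2214073 to 5208405 (median 2991704), and a marker had 23 to 397 counts in a library, so small differences are measured with low precision. The libraries were made from the 3′ ends of polyadenylated transcripts. Levels are given as CPM (counts scaled to a common library size with TMM normalisation), and p-values are those of edgeR's quasi-likelihood test adjusted by the Benjamini-Hochberg method over all genes tested, with 0.05 as the threshold. The 6 hepatocyte markers summed to 55800 to 88000 CPM in these livers, and the 4 B cell markers to 0.345 to 6.00 CPM. Within all 3 groups, some libraries were closer to each other than the rest. The coefficient of variation beyond counting noise was 0.0729 for AAV-miR-34b/c libraries 3 and 4, 0.0925 for libraries 5 and 7 and 0.123 for libraries 1 and 2. It was 0.108 for vehicle libraries 1 and 4 and 0.130 for vehicle libraries 3 and 5. Among AAV-GFP libraries it was 0.109 for 1 and 2, and 0.195 to 0.197 for 3 with 1, 2 or 4. AAV-miR-34b/c libraries 1 and 2 stood apart from the other 5 of their group (0.320 to 0.449, against 0.0729 to 0.250 among those 5), and AAV-GFP libraries 6 and 7 stood apart from the other 5 of theirs (0.249 to 0.377, against 0.109 to 0.239). Some marker comparisons are also given without a pair, mainly for markers in which that pair held the highest values of its group. Not every such comparison is given, and the choice was made after the data were seen. Leaving out the highest values lowers a group by construction.

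*Lyve1* was the single marker that passed the test in any comparison. It rose in AAV-miR-34b/c livers, 2.08-fold over AAV-GFP livers (95% interval 1.63 to 2.65) and 2.75-fold over vehicle livers (2.14 to 3.54). *Lyve1* (ENSMUSG00000030787, chr7:110850607-110863239, minus strand) encodes a membrane receptor for hyaluronan. In the vehicle livers it stood at 15.9, 14.5, 15.1, 15.7 and 24.2 CPM. In the AAV-GFP livers the lowest value was 15.3, the median 23.8 and the highest 28.8 CPM. In the AAV-miR-34b/c livers the lowest was 40.8, the median 46.9 and the highest 52.8 CPM, on 106 to 250 counts per library. Every AAV-miR-34b/c liver was therefore above every liver of both other groups, whereas the vehicle and AAV-GFP groups overlapped.

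Against AAV-GFP, the log2 fold change of *Lyve1* was 1.06 (SE 0.17, edgeR adjusted p = 0.0013; two-sided exact permutation p = 5.83e-04, the smallest that 7 against 7 allow). Of the 9252 genes tested in this comparison, 3.36% passed the threshold, 1.95% as higher, and 1.38% had groups that did not overlap, beside 1 of 10 markers by each of these rules. The call held with each library left out in turn (log2 fold change 0.98 to 1.12), without AAV-miR-34b/c libraries 1 and 2 (1.03, edgeR adjusted p = 0.00316) and without AAV-GFP libraries 6 and 7 (1.19, edgeR adjusted p = 0.00105). When close libraries of a group were summed and counted as 1 sample, which left 4 samples in each TAA group, the value was nearly the same at 1.04 and the call was lost (edgeR adjusted p = 0.0875). With a stricter limit for summing, chosen after the data were seen, which left 6 and 4 samples in the AAV-GFP and AAV-miR-34b/c groups, it was 1.08 (edgeR adjusted p = 0.0318). Over 26 alternative settings the adjusted p ran from 1.69e-07 to 0.0875, and the call held in 25.

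Against vehicle, the log2 fold change of *Lyve1* was 1.46 (SE 0.17, edgeR adjusted p = 9.34e-05; two-sided exact permutation p = 0.00126, the smallest that 7 against 5 allow). In this comparison 21.9% of 9290 genes passed the threshold, 12.2% as higher, and 7.78% had groups that did not overlap. Over 23 alternative settings the value lay between 1.31 and 1.61 and the adjusted p between 7.72e-14 and 0.0124, and the call held in all 23. Between AAV-GFP and vehicle the log2 fold change was 0.39 (SE 0.22, 95% interval -0.06 to 0.85), which did not pass the test (edgeR adjusted p = 0.237).

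**Figure D1:**
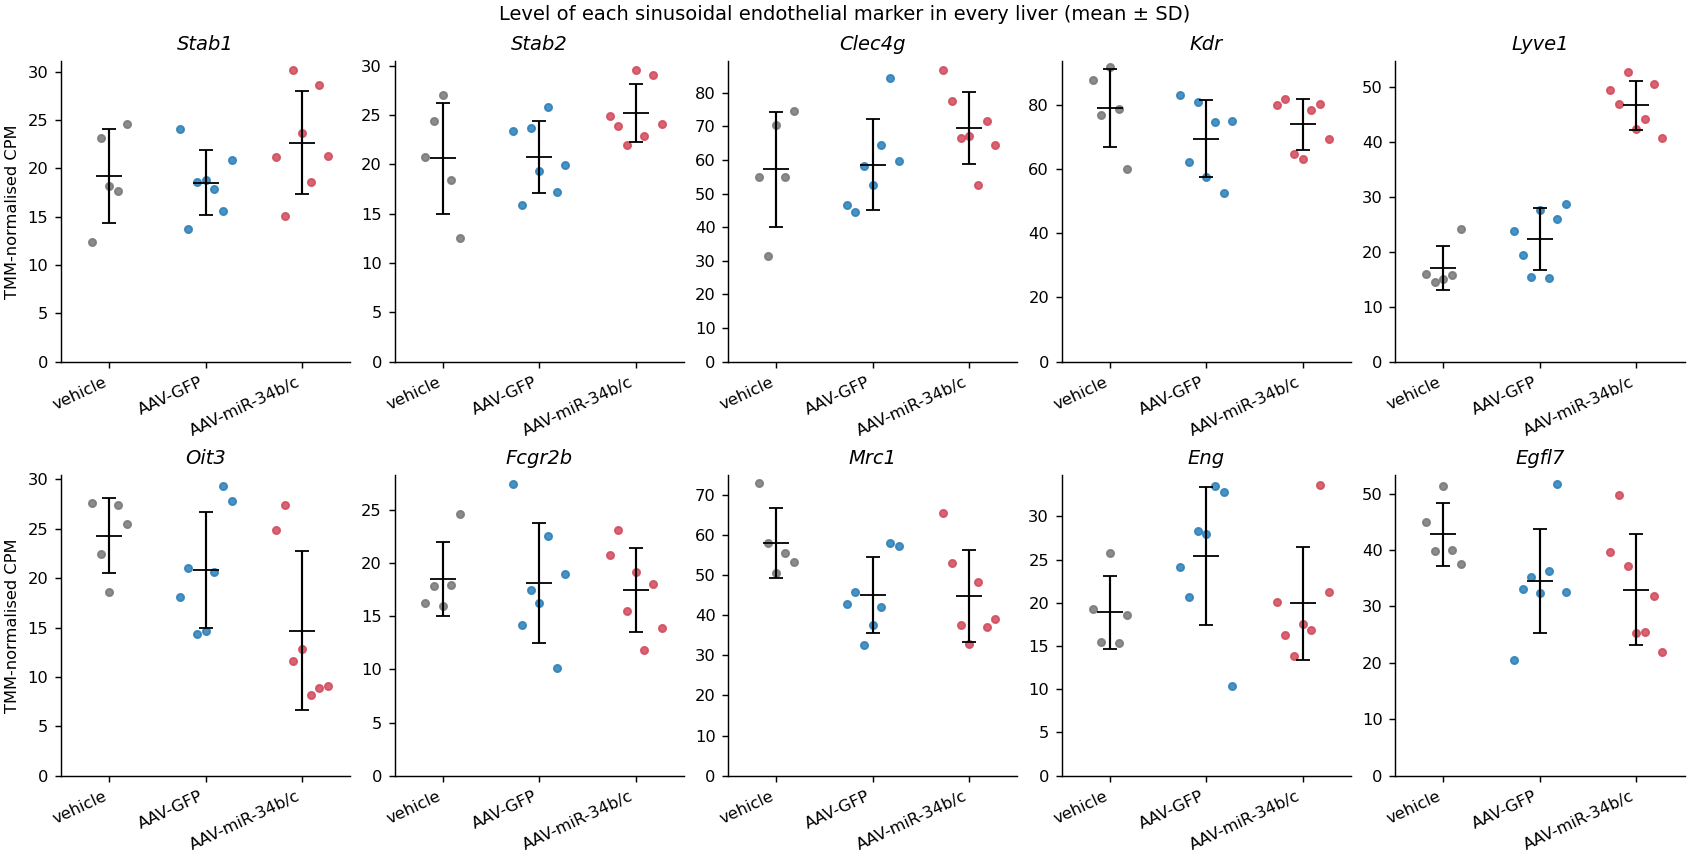
Level of each of the 10 markers in CPM (TMM-normalised, linear axis from 0) in vehicle (n = 5), AAV-GFP (n = 7) and AAV-miR-34b/c (n = 7) livers; each point is a liver and the black marks are the mean ± SD. *Lyve1* separates the AAV-miR-34b/c livers (40.8 to 52.8 CPM) from all others (14.5 to 28.8 CPM), and *Oit3* in AAV-miR-34b/c livers falls into 2 high and 5 low values.

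The other hyaluronan and scavenger receptors did not pass the test. *Stab2* (ENSMUSG00000035459, chr10:86841198-87008025, minus strand) encodes the main receptor by which the sinusoid clears circulating hyaluronan. Its levels in the vehicle livers were 20.7, 24.4, 27.0, 18.4 and 12.5 CPM. They ran from 15.9 through a median of 19.9 to 25.8 CPM in AAV-GFP livers and from 22.0 through 24.1 to 29.6 CPM in AAV-miR-34b/c livers. The 3 groups overlapped, and the log2 fold change of AAV-miR-34b/c against AAV-GFP was 0.27 (SE 0.15, 95% interval -0.06 to 0.59, edgeR adjusted p = 0.443). The exact permutation test of this single gene gave p = 0.0286 (two-sided), without adjustment for the genes tested.

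*Stab1* (ENSMUSG00000042286, chr14:31139013-31168641, minus strand), a scavenger receptor shared by sinusoidal endothelium and tissue macrophages, had a mean level of 19.2 ± 4.84 CPM in vehicle livers (SD, n = 5), 18.5 ± 3.38 CPM in AAV-GFP livers (SD, n = 7) and 22.6 ± 5.33 CPM in AAV-miR-34b/c livers (SD, n = 7). These spreads overlapped. Its log2 fold change was -0.05 for AAV-GFP against vehicle (95% interval -0.48 to 0.39) and 0.29 for AAV-miR-34b/c against AAV-GFP (-0.09 to 0.67). *Stab1* shares 112 exonic bases with *Nt5dc2* on the opposite strand, and since the strand setting of the counting is not stated, reads there could belong to either gene. *Nt5dc2* had 421 counts in all.

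*Mrc1* (ENSMUSG00000026712, chr2:14229392-14332057, plus strand) encodes the mannose receptor, which takes up mannose-rich glycoproteins and denatured collagen. It stood at 72.9, 58.0, 50.5, 55.5 and 53.3 CPM in the vehicle livers. In AAV-GFP livers it ran from 32.6 through a median of 42.9 to 57.9 CPM, with 5 of 7 livers below the lowest vehicle liver. In AAV-miR-34b/c livers it ran from 32.8 through 39.1 to 65.6 CPM, again with 5 of 7 below the lowest vehicle liver. The two-sided exact permutation test of *Mrc1* alone gave p = 0.0391 and p = 0.0492 against vehicle, without adjustment for the genes tested. The fits gave log2 fold changes of -0.36 (SE 0.17, edgeR adjusted p = 0.169) and -0.37 (SE 0.18, edgeR adjusted p = 0.149) against vehicle, neither past the threshold, and -0.02 between the TAA groups (95% interval -0.40 to 0.35).

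The higher *Mrc1* values within both TAA groups were those of the libraries that stood apart. AAV-GFP libraries 6 and 7 had 57.2 and 57.9 CPM against 32.6 to 45.7 CPM in the other 5, and AAV-miR-34b/c libraries 1 and 2 had 52.9 and 65.6 CPM against 32.8 to 48.2 CPM. Each pair held the highest values of its group, so leaving it out lowered that group by construction. Without these pairs, *Mrc1* passed the test against vehicle in both groups, at -0.52 in AAV-GFP livers (edgeR adjusted p = 0.0199) and -0.58 in AAV-miR-34b/c livers (edgeR adjusted p = 0.00685). Leaving out AAV-miR-34b/c library 1 alone also brought it past the threshold (-0.49, edgeR adjusted p = 0.0353). With close libraries summed, the values were -0.22 (edgeR adjusted p = 0.738) and -0.38 (edgeR adjusted p = 0.332). *Mrc1* passed the threshold in 3 of 23 alternatives in AAV-GFP livers (adjusted p 0.0185 to 0.738) and in 4 of 23 in AAV-miR-34b/c livers (0.00685 to 0.348).

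*Fcgr2b* (ENSMUSG00000026656, chr1:170958617-170976547, minus strand) encodes the inhibitory receptor for IgG, by which the sinusoid removes small immune complexes. Its mean level was 18.5 ± 3.54 CPM in vehicle livers (SD, n = 5), 18.1 ± 5.63 CPM in AAV-GFP livers (SD, n = 7) and 17.5 ± 3.97 CPM in AAV-miR-34b/c livers (SD, n = 7). The differences were smaller than the spread within any group, and the 95% interval of the log2 fold change between the TAA groups was -0.52 to 0.38. *Clec4g* (ENSMUSG00000074491, chr8:3707064-3720651, minus strand), a C-type lectin of sinusoidal endothelium that binds glycans, had 57.3 ± 17.1 CPM, 58.7 ± 13.5 CPM and 69.5 ± 10.7 CPM in the same order. Its log2 fold change between the TAA groups was 0.23 (95% interval -0.10 to 0.57, edgeR adjusted p = 0.536). AAV-miR-34b/c libraries 1 and 2 had the highest values of their group for both genes, at 20.8 and 23.1 CPM for *Fcgr2b* and 77.5 and 86.7 CPM for *Clec4g*. Without them the log2 fold changes between the TAA groups were -0.22 for *Fcgr2b* (edgeR adjusted p = 0.589) and 0.12 for *Clec4g* (edgeR adjusted p = 0.714).

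Of the markers that act in signalling, *Kdr*, *Eng* and *Egfl7*, none passed the test in the 3 comparisons. *Kdr* (ENSMUSG00000062960, chr5:75932827-75978458, minus strand) encodes the main signalling receptor for VEGF-A, which maintains the fenestrae of the sinusoid. It was measured on 149 to 397 counts per library, and its mean level was 79.0 ± 12.2 CPM in vehicle livers (SD, n = 5), 69.6 ± 11.9 CPM in AAV-GFP livers (SD, n = 7) and 74.1 ± 8.00 CPM in AAV-miR-34b/c livers (SD, n = 7). Its intervals were the narrowest of the 10 markers, with a log2 fold change of 0.08 between the TAA groups (95% interval -0.21 to 0.37) and -0.09 for AAV-miR-34b/c livers against vehicle livers (-0.40 to 0.22).

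*Eng* (ENSMUSG00000026814, chr2:32646595-32682669, plus strand) encodes endoglin, a co-receptor for BMP9 and BMP10 on endothelial cells. Its levels in the vehicle livers were 19.3, 15.5, 25.7, 15.3 and 18.6 CPM. They ran from 10.4 through a median of 28.0 to 33.5 CPM in AAV-GFP livers and from 13.8 through 17.6 to 33.6 CPM in AAV-miR-34b/c livers. In AAV-GFP livers 4 of 7 values lay above all vehicle values and 1, that of library 7, below them all. The log2 fold change was 0.44 for AAV-GFP against vehicle (SE 0.25, edgeR adjusted p = 0.238) and -0.35 between the TAA groups (SE 0.24, edgeR adjusted p = 0.55). Without AAV-GFP library 7 the former was 0.58, at the threshold and not called (edgeR adjusted p = 0.05). With 1 library left out the latter ran from -0.54 to -0.27 (edgeR adjusted p 0.255 to 0.745). *Eng* shares 61 exonic bases with *Fpgs* on the opposite strand, which had 4053 counts in all, so its counts could include reads of that gene.

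*Egfl7* (ENSMUSG00000026921, chr2:26580014-26593120, plus strand) encodes a matrix-bound factor secreted by endothelial cells. It stood at 44.9, 39.9, 51.4, 40.0 and 37.6 CPM in the vehicle livers, at 20.5 to 51.7 CPM (median 33.1) in AAV-GFP livers and at 22.0 to 49.7 CPM (median 31.8) in AAV-miR-34b/c livers. In these groups 6 of 7 and 5 of 7 livers lay below the lowest vehicle liver. The log2 fold changes against vehicle were -0.30 (SE 0.19, edgeR adjusted p = 0.3) and -0.37 (SE 0.20, edgeR adjusted p = 0.19), neither past the threshold. Without AAV-miR-34b/c libraries 1 and 2, which held the highest values of the group, the latter was -0.59 (edgeR adjusted p = 0.0121). Over 23 alternatives the adjusted p of this comparison ran from 0.0121 to 0.4, with 3 past the threshold. *Egfl7* shares 64 exonic bases with *Agpat2* on the opposite strand, which had 13901 counts in all and could have given some of its reads.

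*Oit3* (ENSMUSG00000009654, chr10:59422958-59441778, minus strand), a secreted protein with a zona pellucida domain, had the largest coefficient of variation of the 10 markers among AAV-miR-34b/c livers, though not among vehicle or AAV-GFP livers. In the vehicle livers it stood at 27.6, 22.4, 18.6, 27.4 and 25.5 CPM, and in AAV-GFP livers at 14.3 to 29.3 CPM with a median of 20.6 CPM. In AAV-miR-34b/c livers it was 24.9 and 27.4 CPM in libraries 1 and 2 and 8.21 to 12.8 CPM in the other 5. Those 5 livers were below every liver of both other groups, while libraries 1 and 2 were within their range. The coefficient of variation of *Oit3* in AAV-miR-34b/c livers was 54.6%, against 9.53% for *Lyve1* in the same livers, and it was 15.6% in vehicle and 28.2% in AAV-GFP livers.

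Over all 7 AAV-miR-34b/c livers, *Oit3* did not pass the test, with a log2 fold change of -0.74 against vehicle (SE 0.30, 95% interval -1.36 to -0.11, edgeR adjusted p = 0.0831) and -0.53 against AAV-GFP (SE 0.29, 95% interval -1.13 to 0.07, edgeR adjusted p = 0.409). The two-sided exact permutation test of *Oit3* alone gave p = 0.0404 against vehicle, also unadjusted. Libraries 1 and 2 stood apart over all genes and held the highest *Oit3* levels of the group. Without them the log2 fold change was -1.28 against vehicle (edgeR adjusted p = 1.12e-04) and -1.07 against AAV-GFP (edgeR adjusted p = 0.00889). Leaving out library 1 alone gave -0.92 against vehicle (edgeR adjusted p = 0.0219), and leaving out library 2 alone gave -0.95 (edgeR adjusted p = 0.0148). With close libraries summed, so that libraries 1 and 2 counted as 1 of 4 samples, the value against vehicle was -0.78 (edgeR adjusted p = 0.209). Of the alternatives, 5 of 23 called *Oit3* against vehicle (adjusted p 1.12e-04 to 0.209) and 2 of 26 against AAV-GFP (0.00889 to 0.67). Over these settings the log2 fold change ran from -1.28 to -0.61 against vehicle and from -1.07 to -0.30 against AAV-GFP. AAV-GFP libraries 6 and 7, which stood apart in their own group, also had its highest *Oit3* levels (27.8 and 29.3 CPM, against 14.3 to 21.0 CPM). Without them the log2 fold change of AAV-GFP against vehicle was -0.44 (edgeR adjusted p = 0.0908), beside -0.22 with them (edgeR adjusted p = 0.497).

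**Figure D2:**
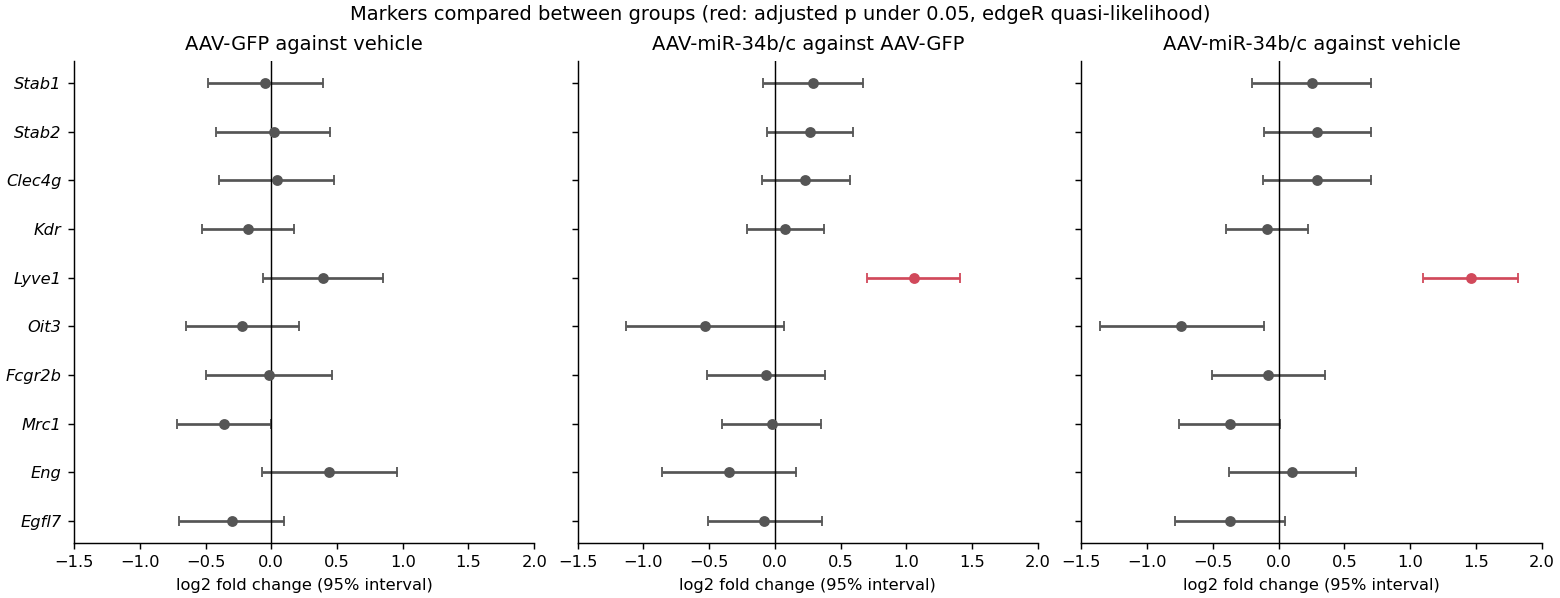
Log2 fold change (points) with its 95% interval (bars) for the 10 markers in the 3 comparisons, from edgeR fits to the 2 groups compared; red points have an adjusted p under 0.05. *Lyve1* is past the threshold in both comparisons of AAV-miR-34b/c livers (1.06 and 1.46), and no marker is in AAV-GFP against vehicle.

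Taken by comparison, AAV-GFP livers differed from vehicle livers in 0 of the 10 markers, against 12.7% of 9522 genes tested, and the groups did not overlap for 0 markers against 4.77% of genes. The number with an unadjusted p under 0.05 was 0 in the same edgeR fit, 1 with DESeq2 and 3 with limma-voom and sample weights. DESeq2 called 0, and limma-voom called 1, *Mrc1* (-0.46, limma-voom adjusted p = 0.0354). The median log2 fold change of the 10 markers was -0.04, with 4 above 0 and 6 below, beside -0.01 for all genes tested. For AAV-miR-34b/c against AAV-GFP it was 0.03 (5 above 0 and 5 below; all genes -0.01), and in AAV-miR-34b/c livers against vehicle livers 0.01 (5 and 5; all genes 0.02). The comparisons share libraries and are not independent of each other. When only library size was used for scaling, the median of all genes moved by -0.19 between the TAA groups and by -0.14 for AAV-miR-34b/c livers against vehicle livers, and the share of called genes that were higher moved from 57.9% to 19.1% and from 55.5% to 31.1%. *Lyve1* remained higher and past the threshold in both, and against vehicle *Oit3*, *Mrc1* and *Egfl7* were then called as lower (-0.92, -0.53 and -0.53).

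The summed level of the 10 markers was 356 ± 24.3 CPM in vehicle livers (SD, n = 5), 334 ± 30 CPM in AAV-GFP livers (SD, n = 7) and 368 ± 44.5 CPM in AAV-miR-34b/c livers (SD, n = 7). These means lay within the spread of the groups. In RNA of whole liver, fewer endothelial cells and less RNA of a gene per cell cannot be told apart. The share of a gene in the counts of the 10 markers restates its level against the other 9, and since the sum was similar in the groups it holds the same difference as the CPM. *Lyve1* held 4.82 ± 1.15% of the marker counts in vehicle livers (3.92% to 6.81%), 6.72 ± 1.70% in AAV-GFP livers (4.33% to 9.09%) and 12.8 ± 1.26% in AAV-miR-34b/c livers (11.3% to 15%). The AAV-miR-34b/c livers did not overlap the other groups in this share either. *Oit3* held 6.87 ± 1.21%, 6.20 ± 1.42% and 3.87 ± 1.68%, and *Mrc1* 16.4 ± 2.5%, 13.5 ± 2.33% and 12.1 ± 2.25%, with overlap between groups for both.

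**Figure D3:**
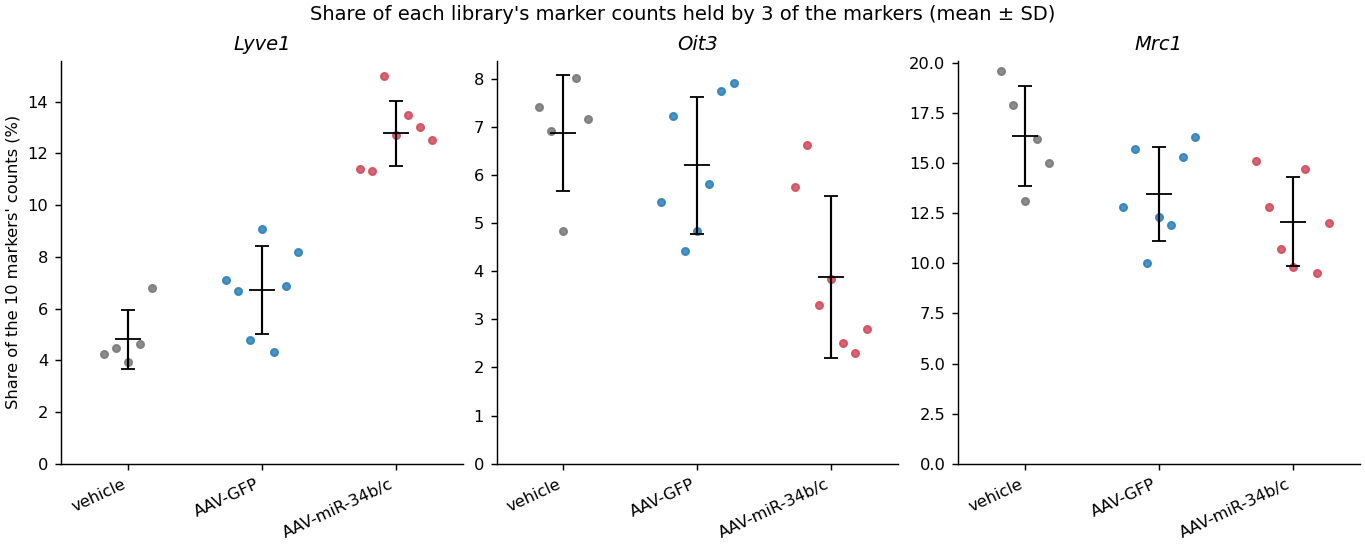
Share of the counts of the 10 markers that *Lyve1*, *Oit3* and *Mrc1* held in each library, in percent, for vehicle (n = 5), AAV-GFP (n = 7) and AAV-miR-34b/c (n = 7) livers; points are livers and black marks the mean ± SD. *Lyve1* held 11.3% to 15% in AAV-miR-34b/c livers and at most 9.09% elsewhere.

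The markers did not move as a block from liver to liver. After the mean of each group was subtracted, the Pearson r of log2 CPM over the 19 livers ran from -0.59 to 0.74 among the 45 pairs of markers, with a median of 0.05 and 24 pairs above 0. These values are descriptions, since the livers share library-wide differences such as those of the libraries that stood apart and of the close pairs. The highest r was between *Oit3* and *Mrc1* (0.74), both high in the libraries that stood apart, followed by *Stab2* and *Kdr* (0.65), *Oit3* and *Egfl7* (0.58) and *Clec4g* and *Egfl7* (0.55). The lowest was between *Stab2* and *Lyve1* (-0.59), the receptors for hyaluronan, and between *Kdr* and *Lyve1* it was -0.45. Among 9405 genes with at least 10 counts per library on average, those most like *Stab2* by the same measure were *Pkp2*, *Nhlrc3*, *Tubgcp4* and *C87436* (0.70 each) and *Cep120* (0.69). None of the other 9 markers was among these 5.

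**Figure D4:**
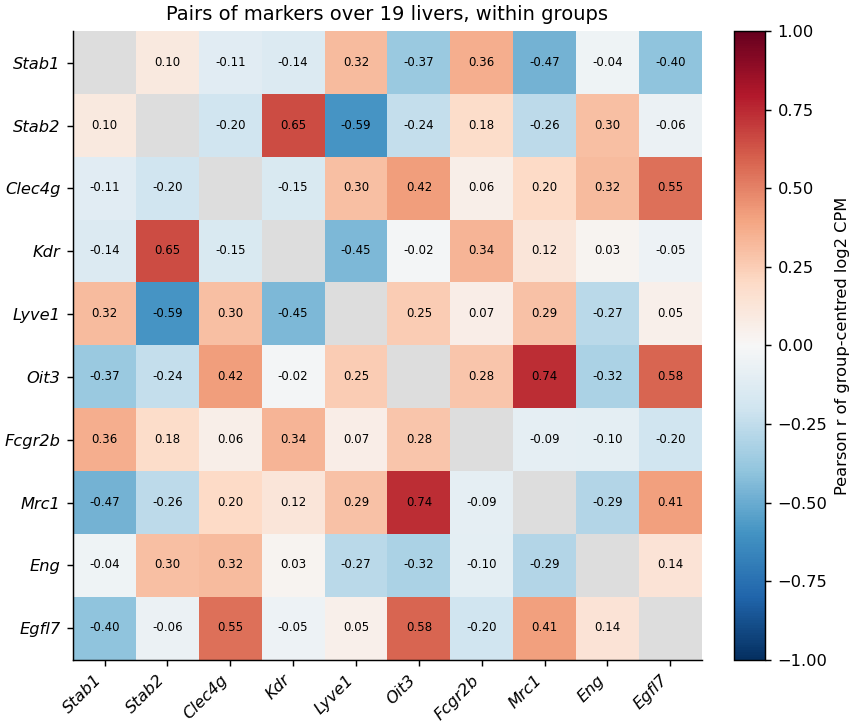
Pearson r between each pair of the 10 markers over 19 livers, from log2 CPM with the mean of each group subtracted; red is positive and blue negative. Values run from -0.59 (*Stab2* with *Lyve1*) to 0.74 (*Oit3* with *Mrc1*).

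Other endothelial genes were read from lists of known markers, whose counts of called genes stand beside 12.7% of all genes tested for AAV-GFP against vehicle, 3.36% between the TAA groups and 21.9% for AAV-miR-34b/c livers against vehicle. When close libraries were summed, 5 of the 22 list genes called in the first of these comparisons kept the call (*Cd163*, *Cd36*, *Col1a1*, *Fabp5* and *Timd4*), 1 of 8 in the second (*Fabp5*) and 1 of 17 in the last (*Cdh5*). All other calls of list genes given here, *Cd5l*, *C1qb*, *Id1* and *Smad7* included, were lost in that setting. Without the libraries that stood apart, the calls of list genes held in every such fit, except for *Smad6* between the TAA groups without AAV-GFP libraries 6 and 7 and for *Cd34* and *Pdgfrb*, which were not tested without that pair for AAV-GFP against vehicle. Of 18 pan-endothelial genes, 12 were tested in each comparison. *Pecam1*, an adhesion molecule of all endothelium, stood at 17.6 ± 3.42 CPM in vehicle livers (SD, n = 5), 15.7 ± 2.80 CPM in AAV-GFP livers (SD, n = 7) and 15.5 ± 1.98 CPM in AAV-miR-34b/c livers (SD, n = 7). None of the 12 was called for AAV-GFP against vehicle or between the TAA groups. Against vehicle, 1 fell in AAV-miR-34b/c livers: *Cdh5*, which encodes VE-cadherin of endothelial junctions, was 25.1 ± 6.01 CPM in vehicle and 10.7 ± 4.28 CPM in AAV-miR-34b/c livers (log2 fold change -1.25, SE 0.26, edgeR adjusted p = 0.00383). In AAV-GFP livers *Cdh5* was 15.5 ± 5.39 CPM, with a log2 fold change against vehicle of -0.69 (SE 0.25, edgeR adjusted p = 0.0701).

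Of 24 further genes of sinusoidal endothelium, 16 were tested against vehicle in AAV-GFP livers and 2 of them were called as higher, *Gata4* (1.08, SE 0.31, edgeR adjusted p = 0.0285), a transcription factor of sinusoidal identity, and *Ehd3* (0.79, SE 0.24, edgeR adjusted p = 0.0361). Both lost the call in at least 1 fit with a library left out. In AAV-miR-34b/c livers 2 of 16 were called as higher, a share near the 12.2% of all genes called as higher in that comparison. *Ehd3*, a membrane-trafficking protein, was 63.6 ± 19.2 CPM in vehicle and 128 ± 40.9 CPM in AAV-miR-34b/c livers (log2 fold change 1.02, SE 0.25, edgeR adjusted p = 0.00992), and this call held with each library left out. The other was *Dnase1l3* (0.55, SE 0.19, edgeR adjusted p = 0.0478), a secreted nuclease, whose call did not hold in all of these fits. Between the TAA groups 0 of 17 were called. Of 13 genes of continuous endothelium and basement membrane, 11 were tested for AAV-GFP against vehicle. There *Col4a1* (0.89, SE 0.22, edgeR adjusted p = 0.0129) and *Col4a2* (1.09, SE 0.28, edgeR adjusted p = 0.0142), the chains of type IV collagen, rose, and *Fabp5*, a fatty acid binding protein, fell (-2.03, SE 0.29, edgeR adjusted p = 1.98e-04). Of the 11 genes, 9 were above 0 and 2 below, with a list median of 0.38. *Cd34* was 2.11 ± 0.435 CPM in vehicle and 5.89 ± 2.5 CPM in AAV-GFP livers and was called as higher (1.48, SE 0.38, edgeR adjusted p = 0.0155), but not in every fit with a library left out. It had 4 to 8 counts in a vehicle library, so it passed the filter on low counts through the AAV-GFP livers, where it was high. In AAV-miR-34b/c livers *Cd34* was 4.73 ± 1.67 CPM (2.79 to 7.16 CPM, 8 to 20 counts), beside 1.70 to 2.76 CPM (4 to 8 counts) in vehicle livers. These ranges nearly touched at low counts, and *Cd34* did not pass the filter on low counts in that comparison. *Fabp5* rose between the TAA groups (1.63, SE 0.21, edgeR adjusted p = 1.93e-04) and was there the single gene called of 11. In that comparison 2 of the 11 were above 0 and 9 below, with a list median of -0.29. Against vehicle, 2 of 10 were called in AAV-miR-34b/c livers, *Col4a1* (0.82, SE 0.19, edgeR adjusted p = 0.00649) and *Col4a2* (0.99, SE 0.33, edgeR adjusted p = 0.0414), both as higher, and the call of *Col4a2* did not hold in every fit with a library left out. Of these 10 genes, 4 were above 0 and 6 below, with a list median of -0.03. Type IV collagen is also made by stellate cells, which were not separated from endothelium in these livers.

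The partners of the signalling markers were described in the same way. Of 9 VEGF ligands and receptors, 6 were tested, and 0 were called for AAV-GFP against vehicle or between the TAA groups. *Nrp1*, a co-receptor of *Kdr*, rose in AAV-miR-34b/c livers against vehicle, from 41.8 ± 11.7 CPM to 73.8 ± 16.5 CPM (log2 fold change 0.83, SE 0.21, edgeR adjusted p = 0.0106). *Vegfa*, the main ligand of *Kdr*, was called as lower there (-0.67, SE 0.20, edgeR adjusted p = 0.0271) and lost the call in at least 1 fit with a library left out. Of 18 genes around the receptors of BMP9, BMP10 and TGF-β, 16 were tested for AAV-GFP against vehicle, and *Id1*, a transcription regulator induced by BMP signals, rose (1.75, SE 0.34, edgeR adjusted p = 0.00266). Between the TAA groups 15 were tested and *Id1* (-1.46, SE 0.32, edgeR adjusted p = 0.0125) and *Smad7*, an inhibitor of TGF-β signalling (-1.19, SE 0.25, edgeR adjusted p = 0.0106), fell. *Id2* against vehicle (0.59, SE 0.18, edgeR adjusted p = 0.0351) and *Smad6* between the TAA groups (-1.09, SE 0.29, edgeR adjusted p = 0.0411) were called as well, but not in every fit with a library left out. *Smad6* had 4 to 12 counts in an AAV-miR-34b/c library and passed the filter on low counts through the AAV-GFP livers, where it was high. Against vehicle, 2 of 17 were called in AAV-miR-34b/c livers, *Tgfbr1* (-0.88, SE 0.26, edgeR adjusted p = 0.0241) and *Smad7* (-0.91, SE 0.28, edgeR adjusted p = 0.0291), both as lower and neither in every such fit. *Gdf2*, which encodes BMP9, was not called in any comparison (0.51, -0.16 and 0.37 in the order above, with AAV-miR-34b/c against vehicle last). Of 13 Notch genes, 4 or 5 were tested and 0 were called.

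Of 22 genes of scavenging and endocytosis outside the 10 markers, most of them receptors and some of them coat or adaptor genes, 19 were tested for AAV-GFP against vehicle. *Cd36*, a receptor for modified lipoproteins and fatty acids, rose from 16.2 ± 3.01 CPM to 48.7 ± 7.90 CPM (log2 fold change 1.60, SE 0.18, edgeR adjusted p = 1.7e-05). The activating IgG receptors *Fcgr3* (-1.09, SE 0.24, edgeR adjusted p = 0.00638) and *Fcgr4* (-1.05, SE 0.24, edgeR adjusted p = 0.00921) fell. *Fcgr1*, the other activating receptor of the list, had a log2 fold change of 0.25 (SE 0.48, edgeR adjusted p = 0.764), and inhibitory *Fcgr2b* -0.02 (95% interval -0.50 to 0.46). *Ly75* (-1.43, SE 0.43, edgeR adjusted p = 0.0331) and *Ap2b1* (0.71, SE 0.22, edgeR adjusted p = 0.0359), an adaptor subunit of endocytosis and not a receptor, were also called. Both lost the call in some fits with a library left out. *Ly75* had 0 to 17 counts in an AAV-GFP library and passed the filter on low counts through the vehicle livers, where it was high. Between the TAA groups 0 of 20 were called. Of 19 tested in AAV-miR-34b/c livers against vehicle, 3 were called, *Cd36* (0.94, SE 0.28, edgeR adjusted p = 0.0265) and *Ap2b1* (0.83, SE 0.25, edgeR adjusted p = 0.0263) as higher and *Ly75* (-0.88, SE 0.29, edgeR adjusted p = 0.0393) as lower, none of them in every fit with a library left out. *Cd44*, the other widely expressed hyaluronan receptor, had log2 fold changes of -0.36, 0.29 and -0.06 in the 3 comparisons, none past the threshold.

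Cells that share markers with sinusoidal endothelium were read beside these results. The 14 macrophage and Kupffer cell genes summed to 562 to 1070 CPM in vehicle livers (median 895), 464 to 742 CPM in AAV-GFP livers (median 639) and 670 to 933 CPM in AAV-miR-34b/c livers (median 807), and no gene of the list was at 0 throughout a group. In AAV-GFP livers 6 of 14 fell against vehicle, beside 5.19% of all genes called as lower, with a list median of -0.69. These were the Kupffer cell genes *Timd4* (-2.13, SE 0.34, edgeR adjusted p = 5.69e-04), *Cd163* (-1.59, SE 0.25, edgeR adjusted p = 5.55e-04), *Clec4f* (-0.93, SE 0.23, edgeR adjusted p = 0.0133) and *Vsig4* (-0.79, SE 0.19, edgeR adjusted p = 0.0106), and, with a call lost in some fits with a library left out, *Cd5l* (-0.75, SE 0.19, edgeR adjusted p = 0.0151) and *Adgre1* (-0.99, SE 0.26, edgeR adjusted p = 0.0181). *Timd4* had 3 to 19 counts in an AAV-GFP library and 1 to 43 in an AAV-miR-34b/c library. In comparisons with vehicle it passed the filter on low counts through the vehicle livers, where it was high. In AAV-miR-34b/c livers 2 of 13 rose against AAV-GFP, beside 1.95% of all genes called as higher. These were *Cd5l* (0.86, SE 0.17, edgeR adjusted p = 0.00553) and the complement gene *C1qb* (0.94, SE 0.19, edgeR adjusted p = 0.00858). The related *C1qa* (0.16, edgeR adjusted p = 0.682) and *C1qc* (0.31, edgeR adjusted p = 0.374) were not called. Of the 13, 10 were above 0 and 3 below (*Adgre1* -0.23, *Folr2* -0.09 and *Lyz2* -0.04), with a list median of 0.39. Against vehicle, 3 of 14 fell in AAV-miR-34b/c livers, beside 9.75% of all genes called as lower, and 7 of 14 were above 0, with a list median of -0.13. These were *Timd4* (-1.69, SE 0.48, edgeR adjusted p = 0.0196), *Adgre1* (-1.22, SE 0.25, edgeR adjusted p = 0.0039) and *Folr2* (-0.72, SE 0.21, edgeR adjusted p = 0.0246), the last not in every fit with a library left out. The part of macrophages in the levels of *Lyve1*, *Mrc1*, *Stab1* and *Fcgr2b* was not tested.

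Among lymphatic genes, *Ccl21a* was at 0 in every library, *Mmrn1* had at most 7 counts and *Pdpn* at most 14 counts in a library, and *Prox1*, which hepatocytes also express, had log2 fold changes of 0.05, 0.13 and 0.19 in the 3 comparisons, none past the threshold. Mean *Pdpn* was 1.60 ± 1.23 CPM in vehicle livers (SD, n = 5), 1.52 ± 1.15 CPM in AAV-GFP livers (SD, n = 7) and 0.803 ± 0.570 CPM in AAV-miR-34b/c livers (SD, n = 7). Mean *Mmrn1* was 0.552 ± 0.540 CPM, 0.302 ± 0.519 CPM and 0.484 ± 0.889 CPM in the same order, within its spread. The part of lymphatic endothelium in the level of *Lyve1* was not tested. Of 10 stellate cell genes, 9 were tested for AAV-GFP against vehicle and 2 were called, *Pdgfrb* (1.94, SE 0.52, edgeR adjusted p = 0.0193), whose call was lost in some fits with a library left out, and *Col1a1*, which held. *Pdgfrb* had 0 to 7 counts in a vehicle library and passed the filter on low counts through the AAV-GFP livers, where it was high. *Col1a1* rose in AAV-GFP livers against vehicle (2.42, SE 0.36, edgeR adjusted p = 2.98e-04), and *Col1a1* (-1.92, SE 0.29, edgeR adjusted p = 8.98e-04) and *Col3a1* (-1.46, SE 0.26, edgeR adjusted p = 0.00305), chains of fibrillar collagen, fell between the TAA groups. For AAV-miR-34b/c livers against vehicle 1 of 7 was called, *Ecm1* (-0.55, SE 0.15, edgeR adjusted p = 0.0184), not in every fit with a library left out. Of the 6 hepatocyte genes, *Serpina1c* was called as higher against vehicle in AAV-GFP livers (0.64, SE 0.19, edgeR adjusted p = 0.0359; not in every such fit) and in AAV-miR-34b/c livers (0.91, SE 0.18, edgeR adjusted p = 0.00332).

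**Figure D5:**
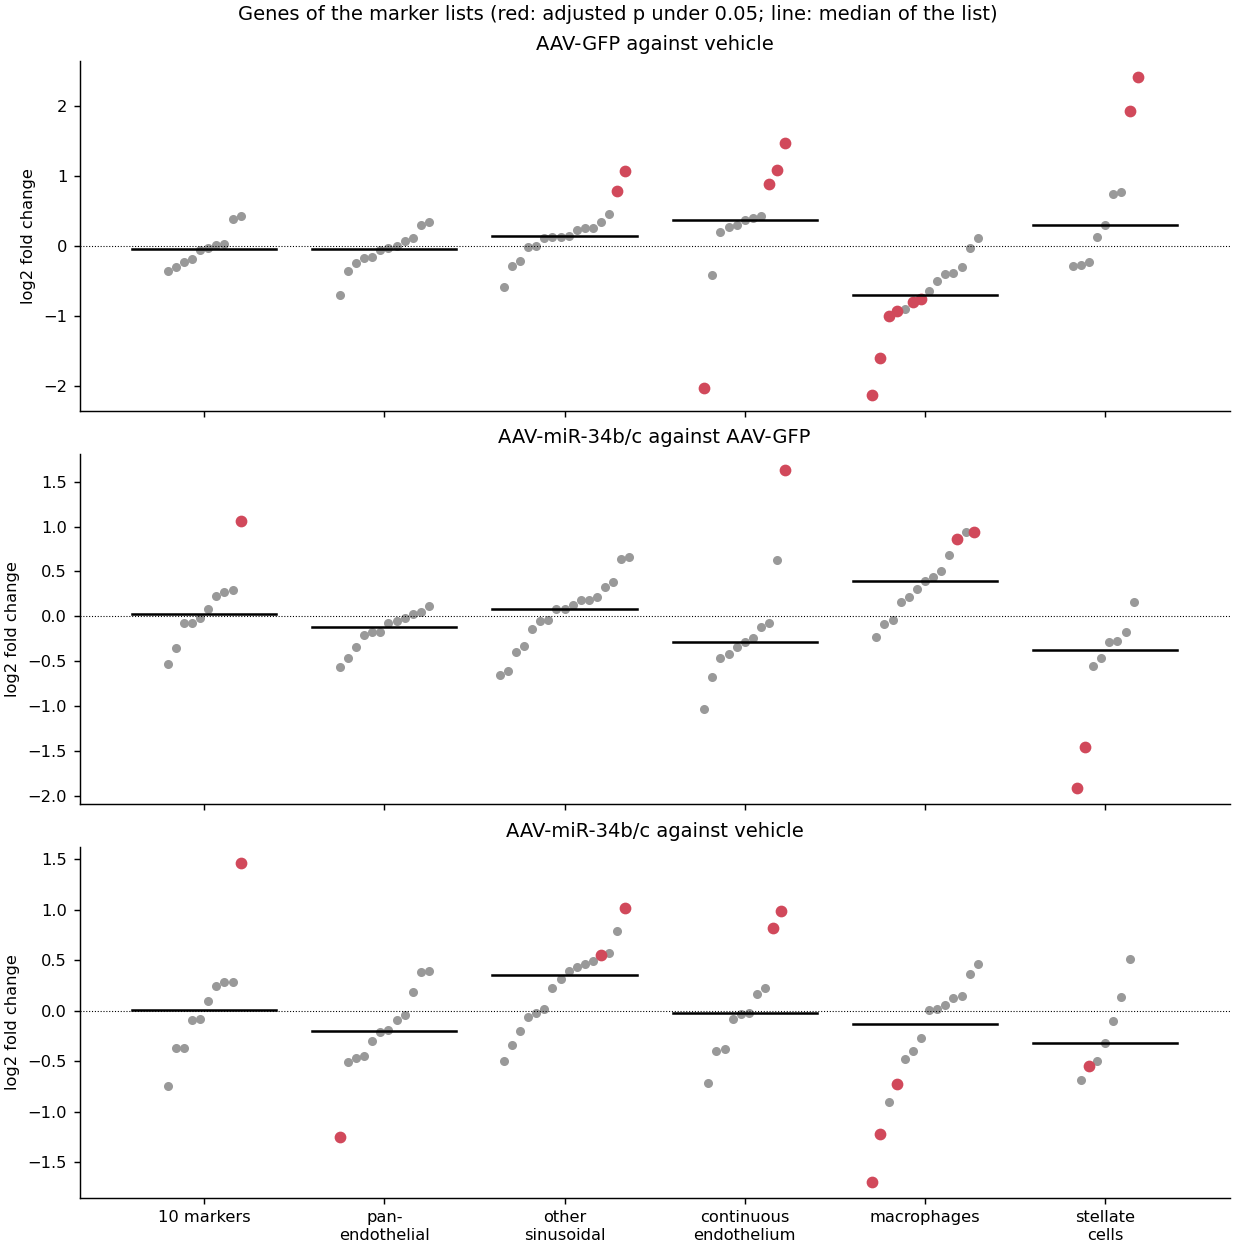
Log2 fold change of every tested gene of 6 marker lists in the 3 comparisons, from edgeR fits; each point is a gene, red points have an adjusted p under 0.05 and the black line is the median of the list. The medians of the 10 markers are -0.04, 0.03 and 0.01, and that of the macrophage list is -0.69, 0.39 and -0.13.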

How the data were processed

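RNA of 19 livers was sequenced from the 3′ end (QuantSeq). According to the methods and the submitters' processing notes, the authors filtered and trimmed the reads, aligned them (STAR, mm10) and counted them by gene with a provider's pipeline. The deposited values are raw counts, not normalized. The annotation release, the strandedness of the counting and whether molecular identifiers were used are not given in the sources used here, so counts may hold PCR duplicates, and reads of overlapping genes cannot be separated. The labels call the libraries biological replicates. The table held 0 columns of other samples. The microRNAs of the vectors and the GFP transcript were not analysed here, so no targeted transcript checks the labels.

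Symbols, positions and 3′ UTRs came from GENCODE M21 (GRCm38) by Ensembl identifier, with a symbol for 30934 of 31053 genes. Of these genes, 13985 had no count in any library. Differential expression was computed from the counts with edgeR 4.0.16 in R 4.3.3 (TMM, filterByExpr at 10 counts and 15 in total, glmQLFit, glmQLFTest), on the 2 groups compared, with no covariate. Standard errors were derived from the fitted log2 fold change and its quasi-likelihood F statistic, and the 95% intervals from these with a t quantile. Single markers were also tested by two-sided exact permutation of log2 CPM (prior count 2) over all 792 or 3432 splits of the mice. CPM printed in the text use TMM factors over all 19 libraries. The model code was tested on simulated data.

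The markers, lists, tests and alternatives were chosen with earlier results of these data known. All 10 markers are named. Genes of the lists are named where their adjusted p was under 0.05, and others as examples of level or direction. The 5 genes most like *Stab2* are a description. Whether a list gene's call held with each library left out was added after the data were seen. The alternatives were no filter, at least 10 counts in every library, DESeq2 size factors, library size only, DESeq2 1.42.0, limma-voom (limma 3.58.1) with sample weights, a single fit to the 3 groups, each library left out, a block for the replicate number, and close libraries summed (coefficient of variation beyond counting noise under 0.2). Added after the data were seen were a limit of 0.15 for summing and leaving out the libraries that stood apart.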

Additional observations from a re-analysis of the deposited data

Results flagged for a closer look

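In 3 of the 30 combinations of marker and group, 1 liver lay far from the others of its group (gap to the nearest liver against the range of the group, Dixon's limit at 95%). Chance alone flags about 1 in 20, or 1.5 of 30. Vehicle liver 5 had the highest *Lyve1* of its group, with a log2 CPM of 4.64 against 4.05 in the next liver (24.2 and 15.9 CPM, 60 counts). The same liver had the highest *Fcgr2b* of its group, at 4.66 against 4.21 (24.6 and 17.9 CPM). AAV-GFP liver 7 had the lowest *Eng*, at 3.47 against 4.41 (10.4 and 20.7 CPM, 33 counts). No explanation of these values was tested.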

How the results depend on the processing

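Counts of 23 to 397 per marker and library limit what could be detected, and close libraries may be less independent than the n states. No filter, DESeq2 size factors and all groups in one fit kept every count of calls within 1.5 times. Genes called for AAV-GFP against vehicle (1212) were 2687 with limma-voom, 131 with close libraries summed, 227 with the closest summed and 2880 without AAV-GFP libraries 6 and 7. With 1 library left out they were 689 to 1859, with 728 without vehicle 1, 689 without vehicle 4, 806 without AAV-GFP 3 and 1859 without AAV-GFP 6. Markers called (0) were 1 with limma-voom and 1 without AAV-GFP libraries 6 and 7, and 0 with any 1 library left out. Genes called between the TAA groups (311) were 624 with library size only, 542 with DESeq2, 813 with limma-voom, 16 and 87 with close and closest libraries summed, 720 without AAV-miR-34b/c libraries 1 and 2, and 209 to 344 with 1 left out. Markers called (1) were 2 with limma-voom, 0 with close libraries summed, 2 without AAV-miR-34b/c libraries 1 and 2, and 1 with any 1 left out. Genes called in AAV-miR-34b/c livers against vehicle (2037) were 3839 with limma-voom, 331 with close and 331 with closest libraries summed, 3878 without AAV-miR-34b/c libraries 1 and 2, and 1267 to 2695 with 1 left out (1328 without vehicle 1, 1267 without vehicle 4). Markers called (1) were 4 with library size only, 4 with limma-voom, 4 without libraries 1 and 2, and 1 to 3 with 1 left out (3 without AAV-miR-34b/c 1, 2 without AAV-miR-34b/c 2). Summing leaves fewer samples, and the cause of the other shifts was not tested.

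Same-numbered libraries did not deviate together (r -0.10 to 0.24, -0.31 to 0.22 and -0.26 to 0.30 in the 3 comparisons). These values show no pairing of the mice by number but cannot exclude one, since library-wide differences enter them. The fit with the replicate number as a block used only libraries whose number is in both groups. In comparisons with vehicle this left out libraries 6 and 7 of the TAA group. For AAV-GFP these are the pair that stood apart, and leaving that pair out without a block gave 2880 called genes. With the block, 3088, 142 and 922 genes were called in the 3 comparisons. Markers called were then 2 for AAV-GFP against vehicle, *Mrc1* (-0.52, edgeR adjusted p = 0.0185) and *Eng* (0.53, edgeR adjusted p = 0.0466). Of the list genes called, 20 of 20 with a value kept the call in the block fit for AAV-GFP against vehicle, 5 of 8 between the TAA groups, where *Id1*, *Smad7* and *Smad6* lost it, and 8 of 17 in AAV-miR-34b/c livers against vehicle. In the same block fit *Clec4g* was -0.05 and *Fcgr2b* 0.06 for AAV-GFP against vehicle, and *Eng* was -0.13 in AAV-miR-34b/c livers against vehicle.

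The sign of some small differences turned, none of them called. For AAV-GFP against vehicle, *Fcgr2b* was 0.01 with at least 10 counts in every library, 0.04 with library size only and 0.09 without AAV-GFP libraries 6 and 7, *Stab1* was 0.01 with library size only, *Clec4g* was -0.06 with limma-voom and -0.09 without AAV-GFP libraries 6 and 7, and *Stab2* was -0.00 with close and with closest libraries summed. Between the TAA groups, *Kdr* was -0.12 with library size only and -0.02 with limma-voom, and *Mrc1* was 0.14 and *Egfl7* 0.05 without AAV-GFP libraries 6 and 7. In AAV-miR-34b/c livers against vehicle, *Eng* was -0.04 with library size only and -0.00 with limma-voom. With 1 library left out, *Stab1* ran from -0.16 to 0.06, *Stab2* from -0.11 to 0.13, *Clec4g* from -0.11 to 0.16 and *Fcgr2b* from -0.15 to 0.10 for AAV-GFP against vehicle. *Fcgr2b* ran from -0.17 to 0.06, *Mrc1* from -0.14 to 0.04 and *Egfl7* from -0.20 to 0.04 between the TAA groups. Against vehicle, *Fcgr2b* ran from -0.15 to 0.04 and *Eng* from -0.08 to 0.23 in AAV-miR-34b/c livers.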
